A study of Mus musculus with 4 samples.

Results

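The genes described here encode the proteins of synaptic vesicles and the SNARE fusion machinery of the mouse. They were picked by gene symbol alone, as the synaptotagmins (*Syt*), syntaxins (*Stx*), syntaxin-binding proteins (*Stxbp*), vesicle-associated membrane proteins (*Vamp*), complexins (*Cplx*), *Snap23*, *Snap25*, *Snap29*, *Snap47* and *Snap91*, synapsins (*Syn1* to *Syn3*), SV2 proteins (*Sv2a* to *Sv2c*), RIM proteins (*Rims1* to *Rims4*), *Syp*, *Sypl* and *Synpr*. This gave 69 of the 24062 genes counted. RNA-seq was performed on retinas of embryos at E13.5 from a mixed C57BL/6 and 129 background, with 2 wildtype libraries and 2 libraries of *Nrf1* f/f;*Six3-Cre* embryos, named Nrf1-CKO in the labels. In the mutants, an exon of *Nrf1*, which encodes the transcription factor nuclear respiratory factor 1, is flanked by loxP sites and removed by a Cre transgene that is active in the central retina, so that cells of the peripheral retina can keep the gene. Each library was made from retinas pooled over several littermates, and the labels call the controls wild type without saying whether they carried a floxed allele or Cre. The replicates are therefore pools, and p-values measure only the spread between 2 pools per genotype.

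A vesicle fuses with the plasma membrane when a VAMP on the vesicle zips together with a syntaxin and a SNAP25-type protein on the target membrane. Syntaxin-binding proteins chaperone the syntaxin, complexins clamp the partly zipped bundle, synaptotagmins couple fusion to calcium, and RIM proteins hold vesicles at the release site, while synapsins tether the vesicles held in reserve. Relatives of the same proteins carry out fusion in every cell, at the Golgi, the endosomes and the lysosome. In the retina at this stage, ganglion cells are the main differentiating neurons and extend axons, and most other cells are dividing progenitors.

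Between 74577660 and 85933945 reads were counted on genes per library, so that 1 read was worth about the same in all 4. Values are given as CPM, the reads of a gene relative to the library total, which was scaled with edgeR's TMM factors. A count over the whole *Nrf1* gene did not show the deletion, with 103 and 105 CPM in the wildtype and 103 and 100 CPM in the mutant libraries, and is no check of the labels, since most of the transcript lies outside the removed exon. As for the tissue, 13 marker genes of retinal progenitors were present in all libraries, with sums of 9449 and 9720 CPM in the wildtype and 7485 and 7689 CPM in the mutants. Of these 13, 3 were called lower. Markers of other cell types also differed between the genotypes. Of 13 markers of ganglion cells, 12 were called lower in the mutants, and their summed level was 3287 and 3735 CPM in the wildtype against 1420 and 1149 CPM in the mutant libraries. All these markers but *Pou4f3* and *Rbpms* are genes the study listed as lower in these same libraries, so their falls are not independent evidence. All 10 lens genes were called higher, with sums of 164 and 470 CPM in the wildtype and 9614 and 3971 CPM in the mutant libraries, as were all 11 genes of macrophages and microglia (89.6 and 83.1 against 266 and 322 CPM), 6 of 8 genes of the pigment epithelium (229 and 164 against 417 and 440 CPM), 6 of 8 of the periocular mesenchyme and 5 of 7 of the endothelium. The endothelial list also held *Kdr*, called lower (-0.55), and its sum was 266 and 270 CPM in the wildtype and 282 and 274 CPM in the mutants, while that of the mesenchyme was 235 and 168 against 350 and 303 CPM. Of the genes tested for red blood cells, photoreceptor precursors, and amacrine and horizontal cells, 2 of 4, 0 of 5 and 2 of 6 were called higher, and 0, 1 and 3 were called lower.

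Mutant and wildtype libraries were set against each other in edgeR's quasi-likelihood test over all 15762 genes that passed a filter on low counts, and p-values were adjusted after Benjamini and Hochberg. Genes that differed at least 1.4-fold at an adjusted p no higher than 0.2 were called. Of the 69 vesicle and SNARE genes, 66 were tested, and 21 of these (31.8%) were called lower in the mutants, where 8.04% of all tested genes were. A further 7 (10.6%) were called higher, against 12.8% of all tested genes, and 38 were not called. At an adjusted p of at most 0.05 from the same edgeR test, the counts were 20 lower and 5 higher. The median log2 fold change of the 66 genes was -0.24, beside a median of 0.00073 over all tested genes, and 46 of the 66 values were negative. Both mutant libraries lay below both wildtype libraries for 40 of the 66 genes and above them for 15. This held for 31.6% and 30.9% of all tested genes, so the second count was below the background. The 3 genes that were not tested were *Stx19* and *Syt15*, with at most 4 reads in any library, and *Vamp7*, which had 0 reads in all 4 libraries. *Vamp7* was also the member without a matched gene model, so its 0 reads do not show that the gene was silent. RNA was taken from whole retinas, in which fewer cells of a type and less RNA per cell cannot be told apart.

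**Figure D1:**
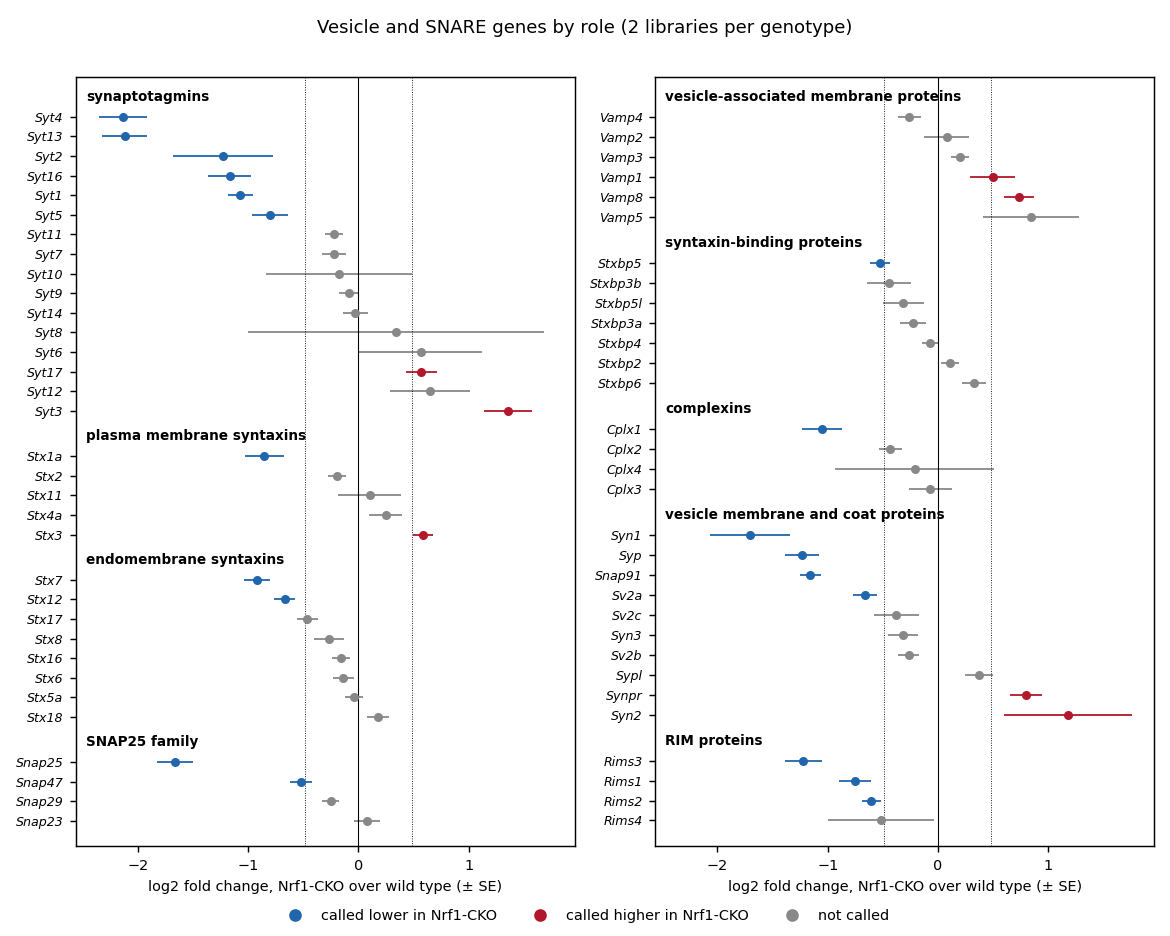
Log2 fold change of tested vesicle and SNARE genes (Nrf1-CKO over wildtype, points with bars of 1 standard error, edgeR, 2 libraries per genotype), grouped by role, with dotted lines at 1.4-fold and colours for the call. The genes called lower reach from -2.14 for *Syt4* to -0.52 for *Snap47*, and those called higher from 0.50 for *Vamp1* to 1.36 for *Syt3*.

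The genes fell into classes by where their proteins act. Among the 34 genes for regulated release, the fusion of vesicles in neurons on demand, 16 were called lower and 4 higher, and the median log2 fold change was -0.47. Their summed level was 745 and 817 CPM in the wildtype and 522 and 467 CPM in the mutant libraries. Among 22 tested genes for general membrane traffic, 3 were called lower (*Stx7*, *Stx12* and *Snap47*) and 2 higher (*Stx3* and *Vamp8*), with a median of -0.15 and sums of 786 and 777 CPM against 718 and 708 CPM. These shares, 13.6% lower and 9.09% higher, were near the 8.04% and 12.8% of all tested genes. The remaining 10 tested genes, mostly synaptotagmins with no settled place, held 2 called lower and 1 called higher, with a median of 0.04. No test was made of the difference between the classes. They were drawn from textbook knowledge of each protein, with earlier results of these data known. *Stx3*, counted under general membrane traffic, also acts at ribbon synapses.

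**Figure D2:**
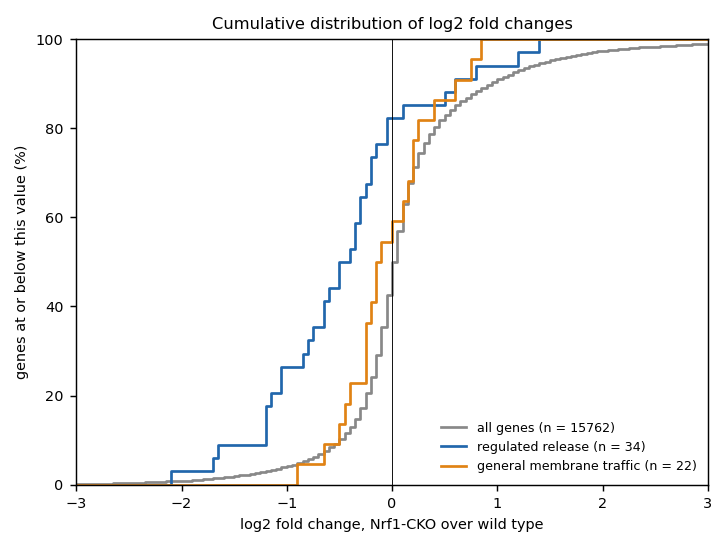
Cumulative share of genes (vertical axis, percent) at or below each log2 fold change (horizontal axis) for all 15762 tested genes, the 34 genes for regulated release and the 22 tested genes for general membrane traffic. At a log2 fold change of -1, the curves stand at 4.14% for all genes, 26.5% for regulated release and 0% for general traffic.

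Synaptotagmins are the C2-domain proteins of vesicles, and some of them sense calcium. Of 16 tested, 6 fell and 2 rose, that is 37.5% and 12.5%, beside 8.04% and 12.8% of all tested genes, so the share that rose was at the background. *Syt1*, the sensor for fast release in many neurons, measured 74.7 and 85.9 CPM in the wildtype and 41.8 and 34.7 CPM in the mutant libraries (log2 fold change -1.07, standard error 0.11). *Syt4*, on vesicles with a dense core and named by the study for these libraries, measured 28.8 and 30.8 against 8.62 and 4.93 CPM (log2 fold change -2.14, standard error 0.22, edgeR adjusted p = 0.000294). *Syt13*, a relative that does not depend on calcium (chromosome 2, 92915098 to 92956058 of GRCm38), measured 92.5 and 97.3 against 27.6 and 16.1 CPM (-2.12, standard error 0.21, edgeR adjusted p = 0.000239). *Syt4* and *Syt13* had the largest falls of the whole set, to 22.7% and 23.02% of the wildtype mean, and in *Syt1*, *Syt4* and *Syt13* alike the lower mutant value came from library 2. *Syt4* was picked by the study on these same libraries, so its fall in them is not independent evidence. The study lists qRT-PCR primers for *Syt4* and reported that its most affected genes moved in qRT-PCR as in RNA-seq. *Syt16* measured 5.61 and 6.51 against 2.74 and 2.65 CPM (-1.17, standard error 0.19). *Syt5* measured 7.71 and 8.52 against 4.97 and 4.34 CPM (-0.80, standard error 0.16). For these 5 genes both mutant libraries lay below both wildtype libraries, as they did for 31.6% of all tested genes. *Syt2*, a fast sensor like *Syt1*, was also called lower but had only 32 to 92 reads per library (-1.23, standard error 0.45, edgeR adjusted p = 0.0859). That call was lost without wildtype library 2 or mutant library 1, and the value lay between -1.52 and -0.99 as single libraries were dropped.

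The synaptotagmins that rose were *Syt3* and *Syt17*. *Syt3*, which binds calcium with high affinity, measured 2.58 and 2.21 CPM in the wildtype and 5.31 and 6.97 CPM in the mutant libraries, a 2.56-fold rise (log2 fold change 1.36, standard error 0.22, edgeR adjusted p = 0.00248). *Syt17* measured 6.82 and 6.59 against 10.4 and 9.50 CPM (0.57, standard error 0.14). For both genes the mutant libraries lay above the wildtype libraries, as they did for 30.9% of all tested genes. The synaptotagmin with the highest level per length was neither of these nor *Syt1* but *Syt11*, a family member that does not bind calcium, at 46.9 ± 2.58 CPM per kilobase of exon in the wildtype (SD, n = 2). It measured 254 and 235 against 218 and 201 CPM and was not called (-0.22, standard error 0.08). The other 7 tested synaptotagmins were not called either. Among them *Syt7*, a slower calcium sensor, had a log2 fold change of -0.22, *Syt9* -0.08 and *Syt14* -0.03. The remaining 4, *Syt6*, *Syt8*, *Syt10* and *Syt12*, lay at or under 1.48 CPM on average, and 17.2% of the exon bases of *Syt12* overlap another gene.

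The complex that drives vesicle fusion in neurons is made of a syntaxin such as *Stx1a*, of *Snap25*, and of *Vamp1* or *Vamp2*, and these genes did not move together. *Snap25*, which the study also named for these libraries, measured 31.5 and 38.3 CPM in the wildtype and 12.8 and 9.31 CPM in the mutant libraries (chromosome 2, 136713453 to 136782428). It fell to 31.6% of the wildtype mean (log2 fold change -1.66, standard error 0.16, edgeR adjusted p = 0.000252), and as a gene picked on these libraries it is not independent evidence. *Stx1a*, its plasma membrane partner, measured 12.8 and 18.01 against 9.17 and 7.83 CPM (-0.85, standard error 0.18, edgeR adjusted p = 0.00878). The mutant values of *Snap25* and *Stx1a* lay below the wildtype values in every library. *Vamp2*, the main synaptobrevin of the brain, was at 10.7 and 14.3 against 15.7 and 10.6 CPM with overlapping groups (0.08, standard error 0.20). *Vamp1*, the other synaptobrevin, measured 3.96 and 3.09 against 5.16 and 4.80 CPM (0.50, standard error 0.21, edgeR adjusted p = 0.121). It passed the call by a small margin, and the call was lost without wildtype library 2 (0.33) or mutant library 1 (0.44).

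The other plasma membrane syntaxins showed 1 further call. *Stx3*, the syntaxin of ribbon synapses and of the apical membrane of epithelia, measured 22.4 and 23.2 CPM in the wildtype and 33.1 and 35.3 CPM in the mutant libraries (log2 fold change 0.58, standard error 0.09, edgeR adjusted p = 0.00225). *Stx2*, the plasma membrane syntaxin with the highest level per length (8.82 ± 0.27 CPM per kilobase in the wildtype, SD, n = 2), was at 41.3 and 39.6 against 35.0 and 35.5 CPM and was not called (-0.20). *Stx4a* (0.25) and *Stx11* (0.10) were not called, and 5.25% of the exon bases of *Stx4a* overlap another gene. Lens and pigment epithelium are epithelia, and their marker sums were higher in the mutants as given above. Their part in the rise of *Stx3* was not tested.

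Among the 8 syntaxins of internal membranes, 2 fell, beside 8.04% of all tested genes. *Stx7*, the syntaxin of late endosomes (chromosome 10, 24149302 to 24190222), measured 48.3 and 47.8 CPM in the wildtype and 28.7 and 22.1 CPM in the mutant libraries (log2 fold change -0.92, standard error 0.12, edgeR adjusted p = 0.000887). *Stx12*, which acts on recycling endosomes, measured 62.2 and 59.6 against 41.7 and 35.0 CPM (-0.67, standard error 0.10), and it had the highest level per length in this group, 19.1 ± 0.57 CPM per kilobase in the wildtype (SD, n = 2). For both genes the mutant libraries lay below the wildtype libraries, and the 2 wildtype libraries were close to each other. *Stx17*, needed for the fusion of autophagosomes, was at 35.9 and 34.1 against 26.6 and 24.2 CPM, below in both mutant libraries but under 1.4-fold (-0.46). The other syntaxins of this group, which act at the Golgi, the endosomes and the endoplasmic reticulum, were not called. *Stx5a* had a log2 fold change of -0.04, *Stx6* of -0.14, *Stx16* of -0.16, *Stx8* of -0.27 and *Stx18* of 0.18.

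In the SNAP25 family, 2 of 4 genes were called lower (8.04% of all tested genes), *Snap25* and, less firmly, *Snap47*. *Snap47*, a relative found on internal membranes, measured 74.9 and 79.5 CPM in the wildtype and 59.0 and 49.0 CPM in the mutant libraries (log2 fold change -0.52, standard error 0.10, edgeR adjusted p = 0.00606). It passed 1.4-fold narrowly, and the call was lost without wildtype library 2 (-0.47) or mutant library 2 (-0.39). Some 11.6% of its exon bases overlap *Jmjd4*. *Snap23*, the form used by cells other than neurons, was at 24.98 and 23.2 against 27.9 and 22.9 CPM with overlapping groups (0.08), and *Snap29*, which acts with *Stx17*, was at 39.8 and 40.2 against 33.9 and 33.2 CPM, not called (-0.25). Per length, *Snap25* made up 9.23% and 10.7% of the family's summed level in the wildtype and 4.65% and 3.94% in the mutants, while *Snap47* held between 53.0% and 56.9% in all 4 libraries. The neuronal form was close to *Snap23* per length in the wildtype (11.6% and 10.3%) and clearly below it in the mutants (16.1% and 15.3%).

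Of the 6 tested VAMP genes, 2 were called higher and 0 lower by edgeR (12.8% and 8.04% of all tested genes), counts too small to set apart from that background. DESeq2 and edgeR's exact test also called 0 lower, and 1 (*Vamp4*) was lower at an unadjusted p under 0.05. *Vamp8*, which serves late endosomes and the release of secretory granules in epithelia and blood cells, measured 10.2 and 9.87 CPM in the wildtype and 14.9 and 18.5 CPM in the mutant libraries, a 1.67-fold rise (log2 fold change 0.74, standard error 0.14, edgeR adjusted p = 0.00536). Its mutant libraries took the same order as the summed macrophage and microglia markers (266 and 322 CPM), whose part in the rise was not tested. *Vamp3*, the widely used relative called cellubrevin, held 67.3% to 70.7% of the family's level per length and was at 85.2 and 77.5 against 90.4 and 96.3 CPM, above in both mutant libraries but not called (0.20). *Vamp4*, of the Golgi and endosomes, was not called (-0.26), nor was *Vamp5*, a muscle form at 0.815 CPM on average (0.85).

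**Figure D3:**
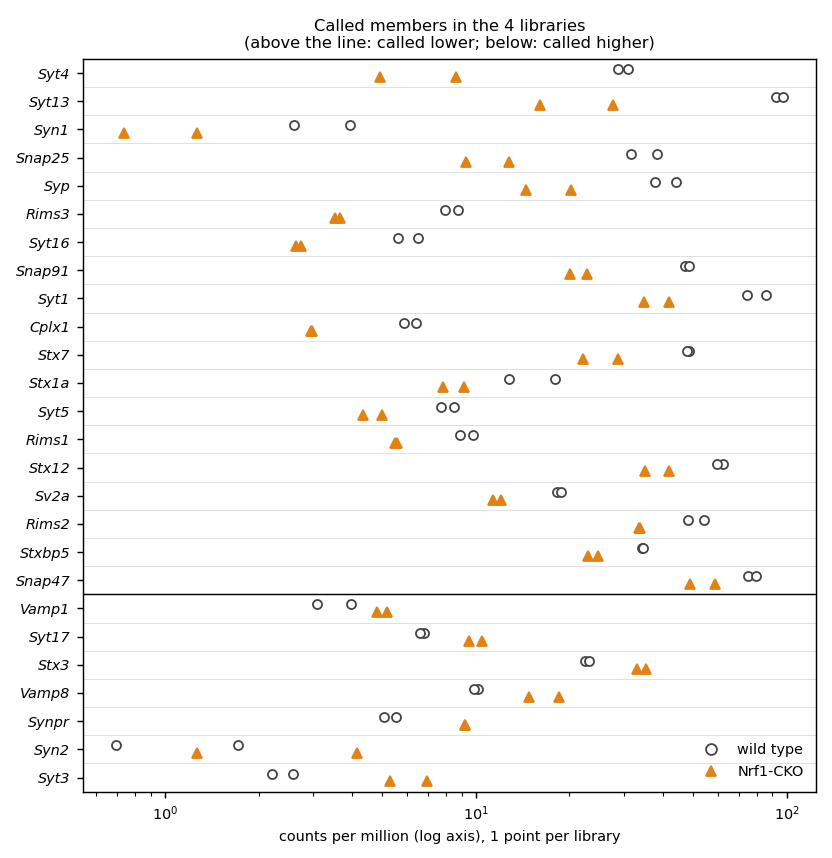
CPM (log axis) in each of the 4 libraries for called genes with a mean of at least 1 CPM, ordered by log2 fold change, with open circles for wildtype and triangles for Nrf1-CKO. The genotypes do not overlap in any of them but *Syn2*, where mutant library 2 (1.27 CPM) lies below wildtype library 2 (1.71 CPM). These genes were picked by their call. Over all tested genes, both mutant libraries lie below both wildtype libraries in 31.6% and above them in 30.9%.

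Syntaxin-binding proteins guide the SNAREs. *Stxbp5*, or tomosyn, an inhibitor that occupies the SNAREs in place of a VAMP, measured 34.3 and 34.4 CPM in the wildtype and 24.8 and 22.9 CPM in the mutant libraries (log2 fold change -0.53, standard error 0.09, edgeR adjusted p = 0.00369), and its call was lost without mutant library 2 (-0.47). It was lower in each mutant library than in either wildtype library. *Stxbp2* and *Stxbp3a*, the forms of cells other than neurons, were not called (0.11 and -0.23), and neither were *Stxbp4* (-0.07), *Stxbp5l* (-0.31) and *Stxbp6* (0.33). The row *Stxbp3b* (-0.44) corresponds in GENCODE to a processed pseudogene of *Stxbp3a*, so the split of reads between those 2 is uncertain.

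All 4 complexins had negative log2 fold changes, but only *Cplx1* was called. Of all 15762 tested genes, 7864 had negative values and 8.04% were called lower. *Cplx1*, common in mature neurons of the central nervous system, measured 6.41 and 5.86 CPM in the wildtype and 2.97 and 2.95 CPM in the mutant libraries, a fall to 48.3% (log2 fold change -1.05, standard error 0.18, edgeR adjusted p = 0.00371). *Cplx2*, by far the most abundant complexin, held between 79.2% and 83.4% of the family's level per length in each library. It was at 84.9 and 99.8 against 72.7 and 64.3 CPM, below in both mutant libraries but under 1.4-fold (-0.43, standard error 0.10, edgeR adjusted p = 0.0154), and it would be called without wildtype library 1 (-0.54) or mutant library 1 (-0.52). *Cplx3* (-0.07) and *Cplx4* (-0.21), the complexins of ribbon synapses, overlapped between the genotypes.

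Of the 10 genes for membrane and coat proteins of the vesicle, 4 were called lower and 2 higher (8.04% and 12.8% of all tested genes), and 1 of the 2 was the weak call of *Syn2*. *Syp*, or synaptophysin, an abundant membrane protein of synaptic vesicles (chromosome X, 7638471 to 7653256), measured 37.7 and 44.0 CPM in the wildtype and 20.2 and 14.5 CPM in the mutant libraries (log2 fold change -1.24, standard error 0.15, edgeR adjusted p = 0.000693). *Synpr*, or synaptoporin, its close relative, rose from 5.55 and 5.06 to 9.21 and 9.26 CPM (0.80, standard error 0.15, edgeR adjusted p = 0.00510). The relative found outside neurons, *Sypl*, was not called (0.37), although both mutant libraries lay above the wildtype libraries. *Sv2a*, a glycoprotein of the vesicle membrane, measured 18.2 and 18.8 against 12.0 and 11.4 CPM (-0.66, standard error 0.11), while *Sv2b* (-0.27) and *Sv2c* (-0.38) were not called. *Snap91*, the clathrin adaptor AP180 that retrieves vesicles, measured 47.1 and 48.3 against 22.7 and 20.0 CPM (-1.16, standard error 0.09), with the lowest adjusted p of the set, 0.000123 in edgeR.

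Of the synapsins, which tether vesicles to the actin skeleton, *Syn1* was called lower and *Syn2*, on weak evidence, higher. Reads of *Syn1* numbered 228 and 292 in the wildtype libraries but 105 and 61 in the mutants, that is 2.60 and 3.94 against 1.26 and 0.737 CPM (log2 fold change -1.71, standard error 0.36, edgeR adjusted p = 0.00963). Those of *Syn2* numbered 61 and 127 as opposed to 345 and 105, that is 0.697 and 1.71 against 4.15 and 1.27 CPM (1.18, standard error 0.58, edgeR adjusted p = 0.189). The *Syn2* groups overlap, and mutant library 1 alone carried the difference. Without that library the log2 fold change was 0.08, and without wildtype library 1 it was 0.66, both not called. Within each genotype the libraries ranked for *Syn2* as they did for the summed lens genes (164 and 470 CPM in the wildtype, 9614 and 3971 CPM in the mutants), whose part in this value was not tested. *Syn3* was not called (-0.32), and 14.1% of its exon bases overlap *Timp3*, which lies inside the gene. Per length, *Syn1* made up 34.7% and 36.9% of the synapsin level in the wildtype and 16.8% and 13.5% in the mutants.

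**Figure D4:**
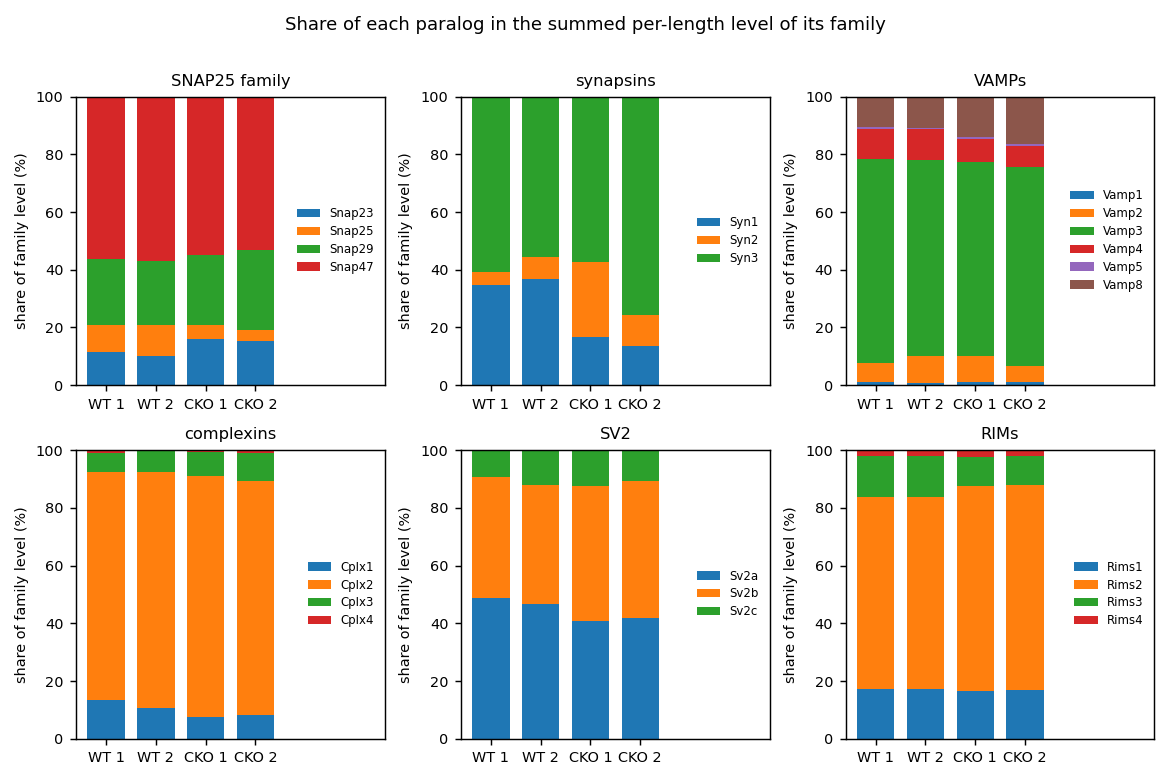
Share of each paralog (vertical axis, percent) in the summed CPM per kilobase of exon of its family, 1 stacked bar per library (WT, wildtype; CKO, Nrf1-CKO). *Snap25* (9.23% and 10.7% against 4.65% and 3.94%) and *Syn1* lose share in both mutant libraries, while *Vamp3*, *Cplx2* and *Rims2* hold most of their families in all 4.

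The RIM proteins, which dock vesicles at the active zone next to calcium channels, had 3 of 4 genes called lower, beside 8.04% of all tested genes. The call of *Rims1* was lost with limma on the deposited values and that of *Rims2* with glmTreat, edgeR's test against a minimum fold. *Rims3* measured 7.96 and 8.76 CPM in the wildtype and 3.66 and 3.52 CPM in the mutant libraries (log2 fold change -1.22, standard error 0.16, edgeR adjusted p = 0.000999). *Rims1* measured 8.88 and 9.79 against 5.49 and 5.58 CPM (-0.75, standard error 0.15). *Rims2*, with 66.5% to 71.4% of the family's level per length, measured 48.3 and 54.0 against 33.7 and 33.6 CPM (-0.60, standard error 0.09, edgeR adjusted p = 0.00143). The mutant libraries differed little from each other for these 3 genes and lay below the wildtype libraries. *Rims4*, at 0.601 CPM on average, had a log2 fold change of -0.51 and was not called.

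Among the 21 genes called lower, mutant library 2 was below mutant library 1 in 19 (90.5%), and wildtype library 1 was below wildtype library 2 in 18 (85.7%). Over all genes called lower, the shares were 78.2% and 72.2%, and over all tested genes 51.9% and 50.2%. The summed ganglion cell markers had the same order, with 3287 and 3735 CPM in the wildtype and 1420 and 1149 CPM in the mutant libraries. All 13 of these markers had negative log2 fold changes, with a median of -1.68 and *Rbpms* (-0.45) as the marker that was not called, while 3 of 13 progenitor markers were called lower (*Ccnd1*, -0.88, *Hes5*, -0.72, and *Fgf15*, -0.70) and 10 were not called (median -0.10 over the 13). Most of the ganglion cell markers were listed as lower by the study on these same libraries. The part of ganglion cell number in the falls of the vesicle genes was not tested. With the genes called higher, the order was mixed. Mutant library 2 was below mutant library 1 in 3 of 7.

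Other genes of the vesicle cycle, none of them in the set, were read from the same test, in which 8.04% of all genes were called lower and 12.8% higher. Of 24 genes for the active zone and priming, 12 were called lower and 3 higher (12.5%, at the background). *Rph3a*, an effector of Rab3, fell the most, from 12.2 ± 0.557 to 2.02 ± 1.19 CPM (SD, n = 2; log2 fold change -2.59, edgeR adjusted p = 0.000786), although dropping single libraries moved that value between -3.36 and -2.09. *Rab3c* fell from 16.8 ± 2.26 to 5.17 ± 1.21 CPM (-1.70), *Unc13a*, the priming factor Munc13-1, by 1.66 on the log2 scale, and *Bsn*, the active zone scaffold bassoon, by 1.32. Among the 3 called higher, *Unc13d*, the priming factor of blood cell granules, rose from 0.654 ± 0.238 to 1.97 ± 0.0113 CPM (1.58, edgeR adjusted p = 0.0185). *Rab27a* (0.92, edgeR adjusted p = 0.0121) and *Rab27b* (0.94, edgeR adjusted p = 0.0905), which guide secretory granules and melanosomes, were also called higher, and *Rab27b* was not called without wildtype library 2 (0.56). These 3 genes are known from blood, pigment and gland cells, and the part of the macrophage and pigment epithelium markers given above was not tested.

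Of 19 tested genes for vesicle transporters and other vesicle proteins, 7 were called lower and 1 higher (*Slc17a8*, at 0.672 CPM on average). The calls of *Slc17a8* (1.02, edgeR adjusted p = 0.181) and of *Sncb*, or beta-synuclein, at 0.125 CPM on average (-1.81, edgeR adjusted p = 0.192), were lost whichever library was dropped, with values of 0.72 to 1.26 and of -2.13 to -1.42. *Slc17a6*, the vesicular glutamate transporter of ganglion cells, fell from 26.4 ± 2.92 to 5.67 ± 1.89 CPM (SD, n = 2; log2 fold change -2.22, edgeR adjusted p = 0.000211). *Sncg*, or gamma-synuclein, fell from 169 ± 15.3 to 31.0 ± 10.5 CPM (-2.44), and is also one of the ganglion cell markers. *Svop*, related to the SV2 proteins, fell by 1.60 on the log2 scale. Of 11 genes for endocytosis of vesicles, 4 were called lower, among them *Dnm3* (-1.38) and *Dnajc6* (-1.03), which uncoats clathrin vesicles. The other calls were *Dnm1* (-0.60), lost without mutant library 2 (-0.48), and *Sh3gl2* (-0.68), lost without either wildtype library or mutant library 2 with -0.42 as its smallest value. Of 4 genes that take SNARE complexes apart, *Napb* was called lower (-1.01), the form most used in neurons, while *Nsf*, *Napa* and *Napg* were not called (-0.18, 0.06 and -0.26). Of 12 further SNAREs of the Golgi, endoplasmic reticulum and endosomes, 0 were called by edgeR, DESeq2 or limma, 2 had an unadjusted p under 0.05 in edgeR, and the log2 fold changes lay between -0.30 and 0.12. *Bsn*, *Unc13a*, *Rab3c*, *Rph3a*, *Slc17a6*, *Sncg*, *Svop*, *Dnm3* and *Dnajc6* are genes that the study picked on these libraries, so their falls are not independent evidence.

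**Figure D5:**
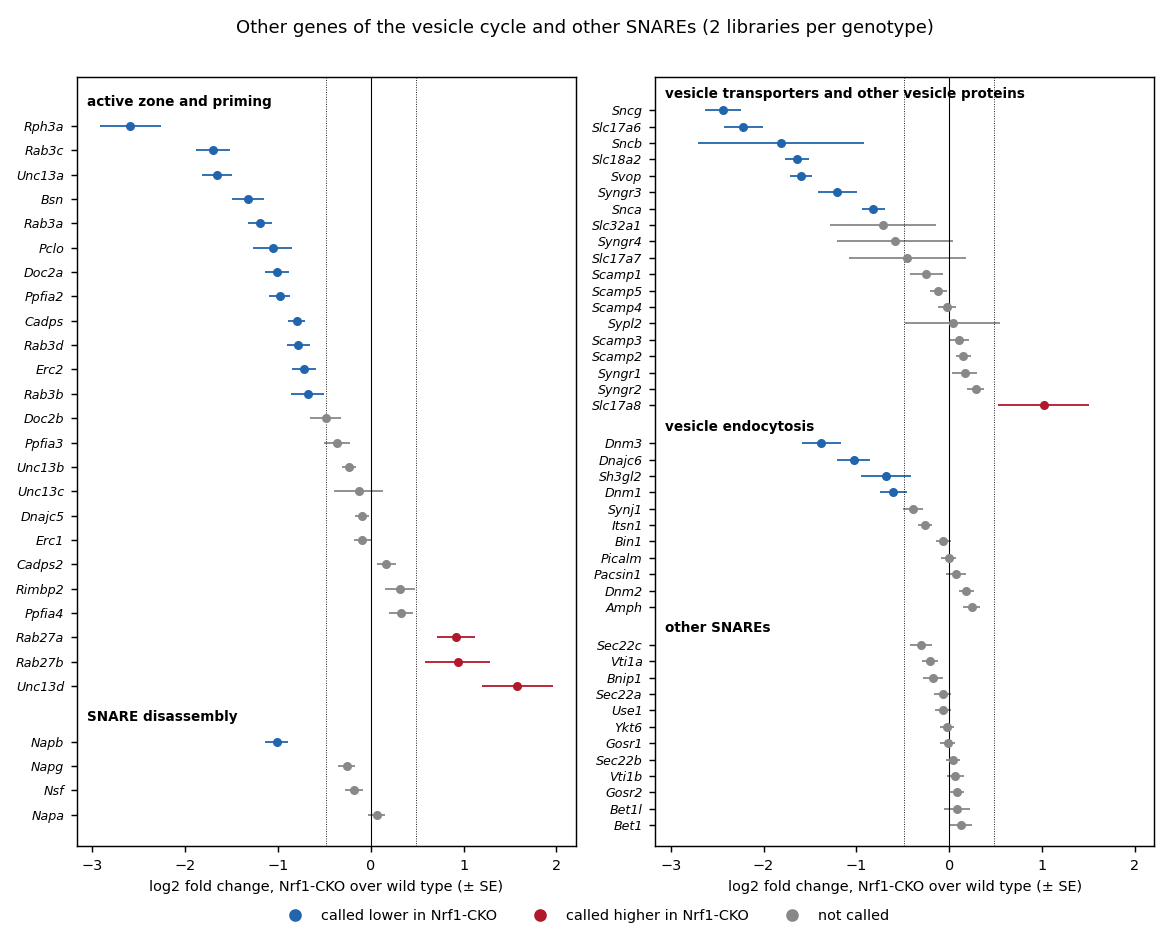
Log2 fold change (Nrf1-CKO over wildtype, bars of 1 standard error, edgeR, 2 libraries per genotype) of 70 tested genes of the vesicle cycle and other SNAREs that are outside the set, grouped by function, with dotted lines at 1.4-fold. Genes called lower number 12 of 24 for the active zone, 7 of 19 for transporters and 4 of 11 for endocytosis. They number 1 of 4 for SNARE disassembly and 0 of the 12 other SNAREs, which lie between -0.30 and 0.12. No test was made between the groups, and 8.04% of all tested genes were called lower.

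Promoter sequence was searched for the binding core of NRF1, the factor removed in the mutants, spelled GCGCANGCG, on both strands in the 250 bases before each RefSeq start (GRCm38.p6). The table of promoters lacked *Syt4*, *Syt13* and *Snap25*, among others, whose promoters were not searched. It held 52 of the 69 genes in 69 windows. The core was in 9 of these windows (13.0%), each of another gene, where 5.16% of all 32851 windows held it. The 9 genes were *Snap47*, *Stx12*, *Stxbp5*, *Syn1* and *Syp*, called lower, and *Snap23*, *Snap29*, *Stx2* and *Sypl*, not called. Of the genes that the table held, the core was thus in 5 of 15 called lower, in 4 of 29 not called and in 0 of 6 called higher. The 5.16% counts windows, not genes. The share with a core among all genes of each call was not counted, so this split cannot show a link to the calls. A part of the site for the repressor REST, TTCAGCACC, was in the window of *Syn1*, in no other window of the set, and in 0.301% of all windows. A match describes the letters and does not show binding. The 5 windows with a core among the genes called lower, and that of *Snap23* as a relative that was not called, are given 5′ to 3′ on the strand of the gene, with the matched letters in capitals.
*Syp* (chrX:7638330-7638579, plus strand): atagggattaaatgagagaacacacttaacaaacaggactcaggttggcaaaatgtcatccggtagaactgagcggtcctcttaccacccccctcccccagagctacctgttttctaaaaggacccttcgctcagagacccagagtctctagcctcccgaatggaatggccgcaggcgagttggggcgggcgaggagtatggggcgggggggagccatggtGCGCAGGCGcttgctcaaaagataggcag
*Syn1* (chrX:20920919-20921168, minus strand): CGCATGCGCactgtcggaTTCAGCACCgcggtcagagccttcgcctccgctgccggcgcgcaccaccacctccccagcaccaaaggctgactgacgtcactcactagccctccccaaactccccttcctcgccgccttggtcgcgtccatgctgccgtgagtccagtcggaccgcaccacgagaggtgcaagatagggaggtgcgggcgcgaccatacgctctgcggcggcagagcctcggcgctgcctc
*Stx12* (chr4:132884459-132884708, minus strand): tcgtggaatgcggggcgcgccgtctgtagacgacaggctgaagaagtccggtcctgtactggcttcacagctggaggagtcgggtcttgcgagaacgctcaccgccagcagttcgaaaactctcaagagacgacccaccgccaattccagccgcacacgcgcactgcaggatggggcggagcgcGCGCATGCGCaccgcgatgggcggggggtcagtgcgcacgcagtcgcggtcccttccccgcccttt
*Stxbp5* (chr10:9901041-9901290, minus strand): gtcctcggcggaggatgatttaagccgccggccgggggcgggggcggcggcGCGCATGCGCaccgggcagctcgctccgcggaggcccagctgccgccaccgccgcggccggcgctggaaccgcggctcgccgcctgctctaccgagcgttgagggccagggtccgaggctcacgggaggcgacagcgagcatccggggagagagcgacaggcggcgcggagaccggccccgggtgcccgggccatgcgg
*Snap47* (chr11:59450035-59450284, minus strand): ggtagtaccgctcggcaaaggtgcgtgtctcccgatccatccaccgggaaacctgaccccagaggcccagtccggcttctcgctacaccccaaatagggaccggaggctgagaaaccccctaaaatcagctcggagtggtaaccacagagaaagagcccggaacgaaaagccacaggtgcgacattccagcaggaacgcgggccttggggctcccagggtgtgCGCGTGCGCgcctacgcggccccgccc
*Snap23* (chr2:120567421-120567670, plus strand): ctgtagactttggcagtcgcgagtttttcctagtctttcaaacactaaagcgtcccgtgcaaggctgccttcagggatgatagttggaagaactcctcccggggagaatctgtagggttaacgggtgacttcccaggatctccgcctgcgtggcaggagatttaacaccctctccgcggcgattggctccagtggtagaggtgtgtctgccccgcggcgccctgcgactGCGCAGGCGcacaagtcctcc
Counted back from the start, where the base just before it is -1, the core began at -29 in *Syp*, -27 in *Snap47* and -21 in *Snap23*. In *Stx12* (from -66) and *Stxbp5* (from -199) 2 matches, 1 per strand, overlap in a palindrome. In *Syn1* the core began at -250, the far edge of the window, with the REST letters at -232.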

How the data were processed

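RNA-seq reads of 4 libraries were aligned by the authors to mm10 with TopHat and counted per gene with HTSeq, and the authors deposited these whole-number counts for 24062 genes without normalization. The gene annotation release and the strand setting of the counting are not given in the sources used here. A second table that the authors deposited holds normalized values on a log2 scale and served only as an alternative. The summary rows of HTSeq, 74.0% to 75.0% of all entries, stayed out of library sizes and tests. Most of them, 54.6% to 58.0% of all entries, were alignments that were not unique, so genes with close copies lose reads.

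The counts were filtered with edgeR's filterByExpr (minimum count 10), scaled with TMM factors (0.992 to 1.02) and tested in R 4.3.3 by quasi-likelihood with edgeR 4.0.16 (alternatives with limma 3.58.1 and DESeq2 1.42.0), with genotype as the only term and Benjamini-Hochberg adjustment over 15762 genes. The common biological coefficient of variation was 12.0%. The study names Cuffdiff on aligned reads, which was not run here, and its thresholds of 1.4-fold and an adjusted p of 0.2 were kept. The script was tested on simulated data. PCR copies are not independent molecules, and with 2 libraries per genotype the spread is known only roughly.

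Values in every library are given for members that the study names, members called with a mean of at least 1 CPM, and the member of each role with the highest level per length in the wildtype. Of the other vesicle genes, those with the 4 largest changes per direction among called genes with a mean of at least 1 CPM and those the study names are named, and *Napb*, *Slc17a8*, *Sncb*, *Dnm1* and *Sh3gl2* were added after their values were seen. Members and lists were chosen with earlier results of these data known. Exon lengths, coordinates and overlaps come from GENCODE for GRCm38, in which 68 of 69 members had a gene model, and promoters from RefSeq. Levels between genes were compared per kilobase of exon. The alternatives were other scaling factors, filters, tools and thresholds, a replicate block, and each library left out in turn. The results for some genes are not reported here.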

Additional observations from a re-analysis of the deposited data

How the results depend on the processing

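Under 17 alternatives no vesicle or SNARE gene with values in every library changed direction, and 15 of the 27 called genes among them were called in every alternative (among them *Cplx1*, *Rims3*, *Snap25*, *Snap91*, *Stx12*, *Stx7*, *Syn1*, *Syp*, *Syt1*, *Syt13*, *Syt3*, *Syt4* and *Vamp8*). With each library left out in turn, 19 to 25 genes were called lower and 5 to 8 higher, and the median log2 fold change lay between -0.27 and -0.22. Tested against a fold of 1.4 with edgeR's glmTreat, 17 genes were called lower and 3 higher. With limma on the deposited log2 values, 2 were called higher and 14 lower, and the median was -0.16. The cause was not tested. The calls of *Syn2* and *Vamp1* were lost under 7 alternatives each, *Snap47* under 5, *Stxbp5* under 3, *Stx3* and *Syt17* under 2, and *Rims1*, *Rims2*, *Stx1a*, *Sv2a*, *Synpr* and *Syt5* under 1. A paired fit with the replicate number as a block gave 21 lower and 6 higher, a median of -0.24 and no call for *Syn2*. The labels do not say that a number marks a shared litter or day. Same-numbered libraries did not deviate together (correlation -0.005 over all tested genes). With 2 libraries per genotype, this cannot show whether the numbers pair the libraries.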
